A study of Mus musculus with 55 samples.

Results

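In CTCF-AID mouse embryonic stem (ES) cells leaving mitosis without auxin, the median level of unspliced transcripts across genes, averaged by stage, was highest 50 to 60 min after release. The 90 min library of replicate 3 nevertheless lay above the 60 min library of replicate 2. Genes over 100 kb had their highest medians later. The libraries described here set 50 and 60 min against mitosis. They come from CTCF-AID cells that received no auxin, and they were chosen by their labels alone: 2 libraries taken 50 min after release (replicates 1 and 3) and 2 taken 60 min after release (replicates 1 and 2), each set against the mitotic library of the same replicate (3 libraries). These are 7 of the 55 libraries of the series. For short, the 4 libraries of 50 and 60 min are called the burst libraries.

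The cells are of the mouse ES line E14Tg2a and carry CTCF fused to an auxin-inducible degron (AID), so that the architectural protein CTCF can be destroyed by adding the auxin IAA. They were grown in serum with leukaemia inhibitory factor and represent 1 clone. All 7 libraries carry the tagged CTCF and none received IAA, so the tag itself has no untagged control here. Cells were held with 10 µM of the CDK1 inhibitor RO-3306 for 4 h, then with 50 ng/ml of the microtubule poison nocodazole for 4 h, and mitotic cells were shaken off. They were either collected at once (mitotic) or released from nocodazole for 50 or 60 min. The other CTCF-AID libraries without IAA, from 20, 40, 90 and 120 min and from asynchronous cultures, are used where named, and so are the libraries with 0.5 mM IAA, given 2 h before release.

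During mitosis chromosomes condense, most transcription factors and RNA polymerase II leave the chromatin, and transcription falls to a low level. As daughter cells form, polymerase is loaded again at promoters and moves along each gene at a limited speed. Introns are spliced out and degraded soon after they are made, so reads from unspliced pre-mRNA follow recent transcription more closely than reads from mature mRNA. Mouse ES cells divide fast and have a short G1 phase, the time in which the programme of genes that keeps them pluripotent has to be running again.

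The measured value is the level of each gene's pre-mRNA as TPM (transcripts per unit of library, a relative level already divided by transcript length), for 10237 genes. Differences are on the log2(TPM + 1) scale, on which the change of a gene with a low level is understated. Depth in reads is unknown, because TPM does not keep it. The 12 genes with the largest rises and the 8 with the largest falls are treated first, then gene lists, then gene length, and last the other stages and the IAA arm.

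Sequences are shown first for the leading protein-coding genes, because they open the ranking of the rises once small RNA genes are set apart. They are the 250 bases before the RefSeq transcription start (GRCm38.p6, 5′ to 3′ on the gene's strand) of the 5 leading genes that have a single promoter in the table used. Capitals mark 4 motifs searched on both strands, none of which contains another: the E-box CACGTG, the cAMP response element TGACGTCA, the TATA box TATAAA and the CCAAT box CCAAT. Cd68 lies at chr11:69666171-69666420 on the minus strand, Actg1 at chr11:120348496-120348745 on the minus strand, Dvl2 at chr11:70000342-70000591 on the plus strand, Rps12 at chr10:23787210-23787459 on the minus strand and Ckb at chr12:111672339-111672588 on the minus strand.
Cd68: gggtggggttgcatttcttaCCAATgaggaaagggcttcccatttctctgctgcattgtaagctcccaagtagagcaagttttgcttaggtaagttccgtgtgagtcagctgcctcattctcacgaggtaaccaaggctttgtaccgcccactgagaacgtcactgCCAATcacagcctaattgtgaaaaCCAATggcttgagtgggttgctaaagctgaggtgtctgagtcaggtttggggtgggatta
Actg1: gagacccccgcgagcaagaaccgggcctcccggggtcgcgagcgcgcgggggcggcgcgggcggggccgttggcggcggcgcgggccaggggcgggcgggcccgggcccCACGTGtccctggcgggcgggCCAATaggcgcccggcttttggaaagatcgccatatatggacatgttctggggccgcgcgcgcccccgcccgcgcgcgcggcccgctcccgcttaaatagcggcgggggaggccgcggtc
Dvl2: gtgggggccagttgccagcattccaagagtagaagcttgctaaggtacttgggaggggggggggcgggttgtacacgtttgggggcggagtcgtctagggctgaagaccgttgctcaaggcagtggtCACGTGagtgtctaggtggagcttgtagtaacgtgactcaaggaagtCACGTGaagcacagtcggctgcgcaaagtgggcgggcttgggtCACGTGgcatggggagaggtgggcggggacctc
Rps12: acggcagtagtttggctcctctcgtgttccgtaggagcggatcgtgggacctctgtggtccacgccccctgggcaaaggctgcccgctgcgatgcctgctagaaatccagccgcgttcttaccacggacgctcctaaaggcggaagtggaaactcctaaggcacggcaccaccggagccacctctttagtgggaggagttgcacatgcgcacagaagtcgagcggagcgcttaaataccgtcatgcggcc
Ckb: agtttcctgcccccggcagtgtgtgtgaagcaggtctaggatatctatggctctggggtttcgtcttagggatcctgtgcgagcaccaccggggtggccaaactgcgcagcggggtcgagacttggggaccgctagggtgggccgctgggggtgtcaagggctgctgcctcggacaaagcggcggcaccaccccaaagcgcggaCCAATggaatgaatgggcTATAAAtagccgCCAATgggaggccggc

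The 5 promoters share no single motif. Dvl2 holds 3 E-boxes, Actg1 holds 1 E-box and 1 CCAAT box, Cd68 holds 3 CCAAT boxes and Ckb holds 1 TATA box and 2 CCAAT boxes. None of the 4 motifs occurs in these 250 bases of Rps12. They also differ in base composition, from 49.2% G or C with 4 CpG in Cd68 to 79.2% with 43 CpG in Actg1.

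Small RNA genes sit at both ends of the ranking, so their mature sequences are given as well, from RefSeq on GRCm38.p6, with the seed (bases 2 to 8) in capitals. The values of these genes are pre-mRNA TPM, and the mature miRNAs were not measured. Mir20a and Mir34a stood near the top of the rises and Mir496a had the lowest log2 change of all genes. Their 3 seeds differ from each other.
mmu-miR-20a-5p: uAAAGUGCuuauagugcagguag
mmu-miR-34a-5p: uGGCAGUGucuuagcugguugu
mmu-miR-496a-3p: uGAGUAUUacauggccaaucuc

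Pre-mRNA rose across most of the genes. The summed TPM of the listed genes was 20943, 18606 and 23302 in mitotic replicates 1 to 3. It was 40151 and 43370 at 50 min (replicates 1 and 3) and 39173 and 38416 at 60 min (replicates 1 and 2). Each burst library thus held 1.86 to 2.06 times the sum of its own mitotic library, and the groups did not overlap. The mean sum was 20950 ± 2348 (SD, n = 3) in mitosis and 40278 ± 2181 (SD, n = 4) in the burst libraries (two-sided exact permutation test over 35 placements of the labels, p = 0.0286, the smallest they can give). The library median of log2(TPM + 1) rose by 0.69, from 1.17 ± 0.09 (SD, n = 3) to 1.86 ± 0.06 (SD, n = 4), with the same exact p of 0.0286. These placements ignore that the libraries are tied by replicate. With the labels placed only within replicates there are 12 placements, and both exact p-values were 0.0833, the smallest that those can give, so neither passed 0.05. A change in the share of reads that come from pre-mRNA and a change in RNA per cell cannot be told apart in these bulk libraries.

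Pair by pair, the median gene rose by 0.61 (50 min, replicate 1), 0.60 (50 min, replicate 3), 0.59 (60 min, replicate 1) and 0.64 (60 min, replicate 2) on the log2 scale. The share of genes above their mitotic level ran from 86.9% to 94.1%. The 4 pairs thus had nearly the same centre and differed in width, the pair of 60 min replicate 1 being the narrowest. The pairs of 50 and 60 min replicate 1 share one mitotic library and are not independent of each other.

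**Figure D1:**
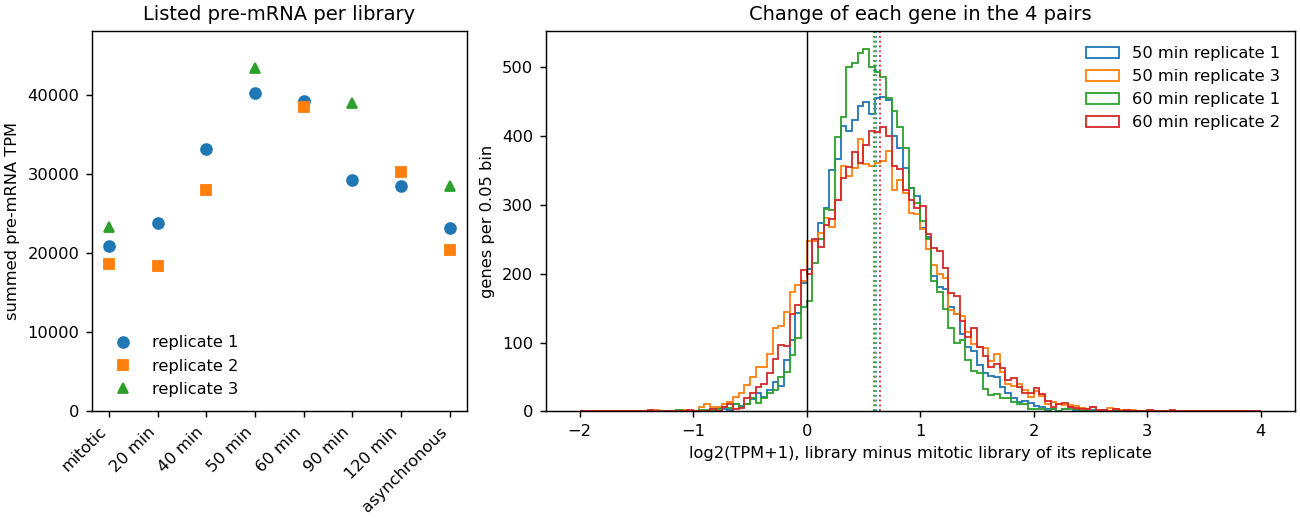
Left, summed pre-mRNA TPM (left axis) of the listed genes in each CTCF-AID library without IAA by stage, with a marker for each replicate. Right, number of genes per 0.05 bin of the difference in log2(TPM + 1) between each burst library and the mitotic library of its replicate, with dotted lines at the medians. The 4 burst libraries lie between 38416 and 43370 and the 3 mitotic ones between 18606 and 23302, and the 4 medians lie between 0.59 and 0.64.

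In the fit across all 10237 genes (limma on log2(TPM + 1) with the replicate as a block, Benjamini-Hochberg adjusted p of 0.05), 8590 genes (83.9%) were higher in the burst libraries than in mitosis and 386 (3.77%) were lower. The median log2 fold change was 0.62, with quartiles of 0.31 and 0.94. The deposited table holds genes whose mean passes 0.5 TPM either in the asynchronous culture or in 2 or more samples after mitosis, so genes high in mitosis alone are not in it and genes near 0 in mitosis can enter through the burst. Among the 8883 genes with an asynchronous mean over 0.5 TPM, a level that uses neither group, 7306 (82.2%) were higher and 375 (4.22%) lower, with a median of 0.63. Of the 1354 others 1284 were higher and 11 lower. In 7735 genes (75.6%) every burst library lay above every mitotic library, and in 235 (2.3%) every burst library lay below. Fewer genes were lower without replicate 2 (247), without replicate 3 (250), without the library of 50 min replicate 3 (249) and without the replicate block (211). When each library was first brought to the same summed TPM, 4305 genes (42.1%) were higher and 3399 (33.2%) lower, with a median of 0.06. The direction given for a gene below is that of the deposited scale, and the value under the same total is given for named genes whose direction turned there.

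The 12 genes with the largest rises that were not small RNA genes had log2 fold changes between 2.50 and 3.08, and all 12 kept a rise of at least 1.68 under the same total. They code for proteins of quite different kinds. All 12 but Dvl2 are shorter than 10 kb.

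Hist1h2bc, a gene for the core histone H2B (chr13:23684199-23692908, GRCm38), rose most among them. It had 3.61, 1.59 and 1.40 TPM in mitotic replicates 1 to 3, against 29.0 and 32.6 TPM at 50 min and 23.6 and 19.8 TPM at 60 min. No burst library overlapped the mitotic ones, and the difference was 3.08 ± 0.21 (log2, SE, adjusted p = 1.31e-08, limma). A further pair of H2B genes, Hist1h2bq and Hist1h2br, rose by 2.72 ± 0.33 and 2.67 ± 0.36. In its plots of single genes the study showed histones as mRNA and the others as pre-mRNA. Whether the histone values here come from unspliced RNA was not tested. The H2B genes are near-identical copies, and how reads were divided among them cannot be checked from TPM. Their stages also differed: Hist1h2bq was at 293 TPM in asynchronous cells (mean of 3 libraries) against 120 TPM in the burst libraries, whereas Hist1h2br was at 5.01 TPM against 24.1 TPM.

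Cd68, a glycoprotein of lysosomal and endosomal membranes (chr11:69664213-69666153), had 2.61, 1.27 and 2.72 TPM in mitosis. It reached 17.0 and 34.7 TPM at 50 min and 12.3 and 17.0 TPM at 60 min. The library of 50 min replicate 3 was the highest and stood apart from the other burst libraries, which all lay well above mitosis (2.72 ± 0.21, adjusted p = 2.92e-08, limma). Asynchronous cells, a separate culture that was not released from mitosis, held 1.92 TPM of Cd68. The pre-mRNA of Atp6v0b, a subunit of the proton pump that acidifies lysosomes, was 1.48, 1.32 and 1.22 TPM in mitosis and 10.2 to 14.2 TPM in the burst libraries (2.50 ± 0.12, adjusted p = 4e-09, limma).

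Actg1, cytoplasmic gamma-actin (chr11:120345690-120348542), had 5.20, 4.86 and 2.15 TPM in mitosis. It was at 32.3 and 19.6 TPM at 50 min and 39.7 and 34.9 TPM at 60 min (2.68 ± 0.19, adjusted p = 1.8e-08, limma). Asynchronous cells held 32.4 TPM, so that the burst level of Actg1, unlike that of Cd68, was close to the asynchronous one. The same was so for Rps12, a protein of the small ribosomal subunit, with 2.15, 3.34 and 0.80 TPM in mitosis, 14.5 to 19.9 TPM in the burst libraries and 20.2 TPM in asynchronous cells (2.61 ± 0.24).

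2 genes of the Wnt pathway were among the 12. Dvl2 codes for Dishevelled 2, which relays the signal inside the cell, and Fzd5 codes for a Frizzled receptor at its surface. Dvl2 (chr11:70000595-70012301) had 2.44, 1.42 and 1.81 TPM in mitosis against 14.4 and 18.0 TPM at 50 min and 14.1 and 21.4 TPM at 60 min (2.66 ± 0.20, adjusted p = 2.26e-08, limma). Fzd5 (chr1:64730558-64737751) had 3.65, 2.49 and 2.72 TPM against 21.3 and 27.6 TPM at 50 min and 15.2 and 21.9 TPM at 60 min (2.51 ± 0.25). In asynchronous cells both were low, at 2.44 and 5.17 TPM. They are 2 of the 12 by rank, and the Wnt pathway was not among the lists.

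The remaining 3 genes of the 12 were Ckb, the brain-type creatine kinase, Cox6b2, a subunit form of cytochrome c oxidase known from testis, and Tssc4. Ckb had 2.72, 0.59 and 2.61 TPM in mitosis and 14.8 to 17.5 TPM in the burst libraries. Cox6b2 went from 4.74, 3.49 and 2.87 TPM to 21.7 to 29.5 TPM, and Tssc4 from 1.67, 0.88 and 1.37 TPM to 9.28 to 14.4 TPM. In each of these genes all 4 burst libraries lay far above the 3 mitotic ones.

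**Figure D2:**
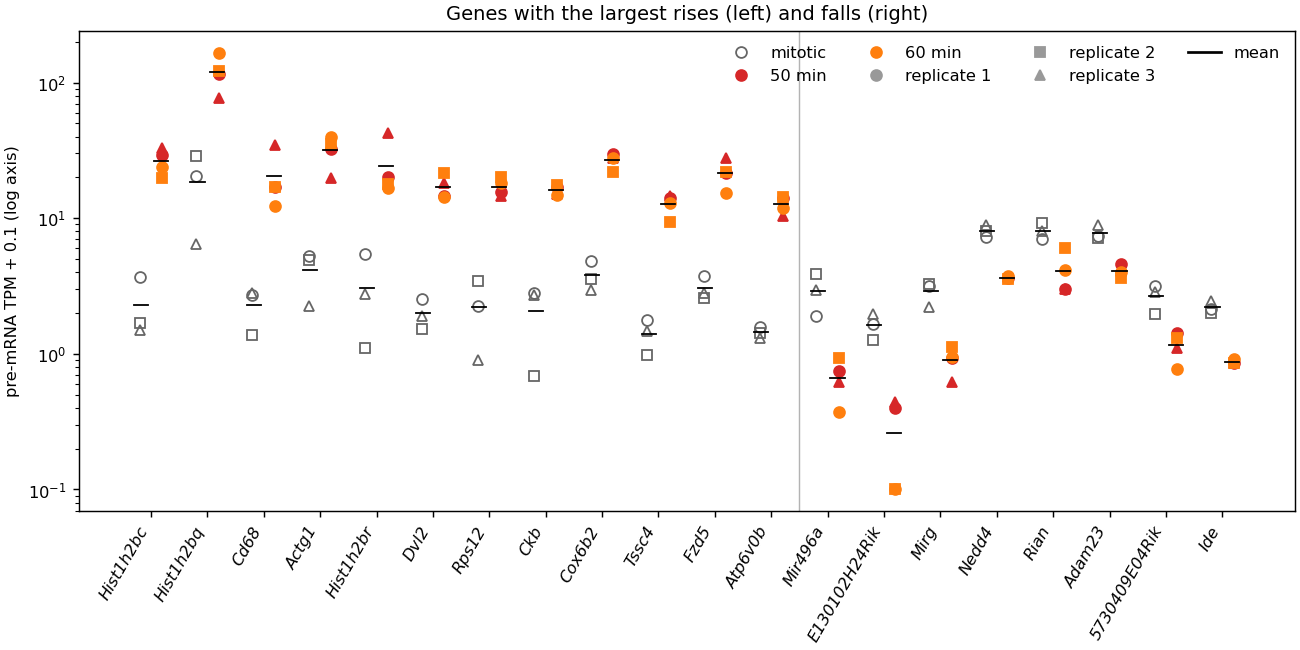
Pre-mRNA TPM plus 0.1 on a log axis in the 3 mitotic (open) and 4 burst libraries (filled, 50 min in red and 60 min in orange) for the 12 genes with the largest rises and the 8 with the largest falls. Marker shapes are replicates and bars are means. In each of these 20 genes the burst and mitotic libraries do not overlap, which the choice of genes required.

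The small RNA gene with the largest rise was Mir20a, which codes for a member of the miR-17 family of miRNAs. It was listed at 0.087 TPM in mitotic replicate 1 and at 0 in the other two, against 10.7 and 12.3 TPM at 50 min and 4.72 and 6.31 TPM at 60 min (3.13 ± 0.30, adjusted p = 2.1e-07, limma). Asynchronous cells held 1.65 TPM. Mir20a is 0.107 kb long and lies inside the host transcript Mir17hg, so its value may be that of a short window of the host, which was not tested. Mir17hg itself, named after its value was seen, rose from 10.0, 10.6 and 7.53 TPM in mitosis to 20.1 to 27.8 TPM in the burst libraries (1.28). Mir34a, a miRNA gene under p53 and also named after its value was seen, rose from 0.78, 2.15 and 0.47 TPM to 10.1 and 7.46 TPM at 50 min and 15.3 and 10.2 TPM at 60 min (2.49).

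Falls could be seen only in genes that are also listed through asynchronous or released cells. The 8 genes with the largest falls had log2 fold changes between -1.21 and -0.80. Nedd4, a ubiquitin ligase (chr9:72662346-72749852), had 7.11, 7.91 and 8.85 TPM in mitosis and 3.55, 3.59, 3.62 and 3.43 TPM in the 4 burst libraries. These 4 values were nearly equal and all lay below mitosis (-0.95 ± 0.09, adjusted p = 2.77e-07, limma). Adam23, a membrane protein of the disintegrin family, went from 7.33, 7.10 and 8.80 TPM to 3.53 to 4.52 TPM (-0.82 ± 0.10). Ide, a protease that degrades insulin, went from 2.04, 1.90 and 2.36 TPM to 0.75 to 0.81 TPM (-0.80 ± 0.06). Both, and Nedd4, were higher in asynchronous cells than in the burst libraries, at 10.6 TPM (Adam23), 2.19 TPM (Ide) and 9.27 TPM (Nedd4).

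3 of the 8 come from a single imprinted region of chromosome 12, where a row of non-coding transcripts is made from the maternal chromosome in the order Meg3, Rian and Mirg. Rian (chr12:109603940-109661716) had 6.92, 9.08 and 7.89 TPM in mitosis, 2.91 and 2.89 TPM at 50 min and 4.05 and 5.97 TPM at 60 min (-0.83 ± 0.12, adjusted p = 1.74e-05, limma). Mirg (chr12:109729764-109749460) had 3.09, 3.17 and 2.12 TPM against 0.83 and 0.52 TPM at 50 min and 0.85 and 1.02 TPM at 60 min (-1.05 ± 0.10). Mir496a, whose sequence is shown above and which lies within Mirg, had 1.81, 3.81 and 2.85 TPM against 0.27 to 0.83 TPM (-1.21 ± 0.09), so that the last 2 values are not independent. Meg3 (chr12:109541001-109571726), the first of the row and named after its value was seen, had 13.2, 19.1 and 14.6 TPM in mitosis and 12.6 to 22.2 TPM in the burst libraries. Its groups overlapped and it was not called (0.10 ± 0.13, adjusted p = 0.487, limma), whereas under the same total it was lower (-0.80, adjusted p = 3.42e-06, limma), as was Rian (-1.62). The mean of Mirg was 2.30 TPM (90 min) and 5.23 TPM (120 min) in later libraries and 6.10 TPM in asynchronous cells, whereas that of Mir496a was 0.12, 0.60 and 0.18 TPM.

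The last 2 of the 8 were E130102H24Rik, a non-coding gene, and 5730409E04Rik, annotated as protein coding, whose roles are not described here. E130102H24Rik had 1.57, 1.17 and 1.86 TPM in mitosis, 0.30 and 0.34 TPM at 50 min, and was listed at 0 in both libraries of 60 min. It overlaps another gene on the opposite strand. 5730409E04Rik had 3.09, 1.88 and 2.74 TPM in mitosis and 0.67 to 1.31 TPM in the burst libraries.

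20 gene lists were compared with all genes, by their counts and medians only. Among all genes, 83.9% were higher, 3.77% were lower, and the median log2 fold change was 0.62. Under the same total 42.1% of all genes were higher and 33.2% lower, with a median of 0.06. The counts of each list below are to be read beside these shares. The highest median was that of the replication-dependent histones (2.67, 5 genes), with the limits given above for the H2B genes. Next came p53 targets (1.41, 13 genes), immediate early genes (1.31, 18 genes), replication licensing (1.09, 23 genes) and lysosome (1.05, 22 genes). The lowest were ribosomal proteins (0.49, 79 genes) and Zfp zinc finger genes (0.53, 283 genes).

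**Figure D3:**
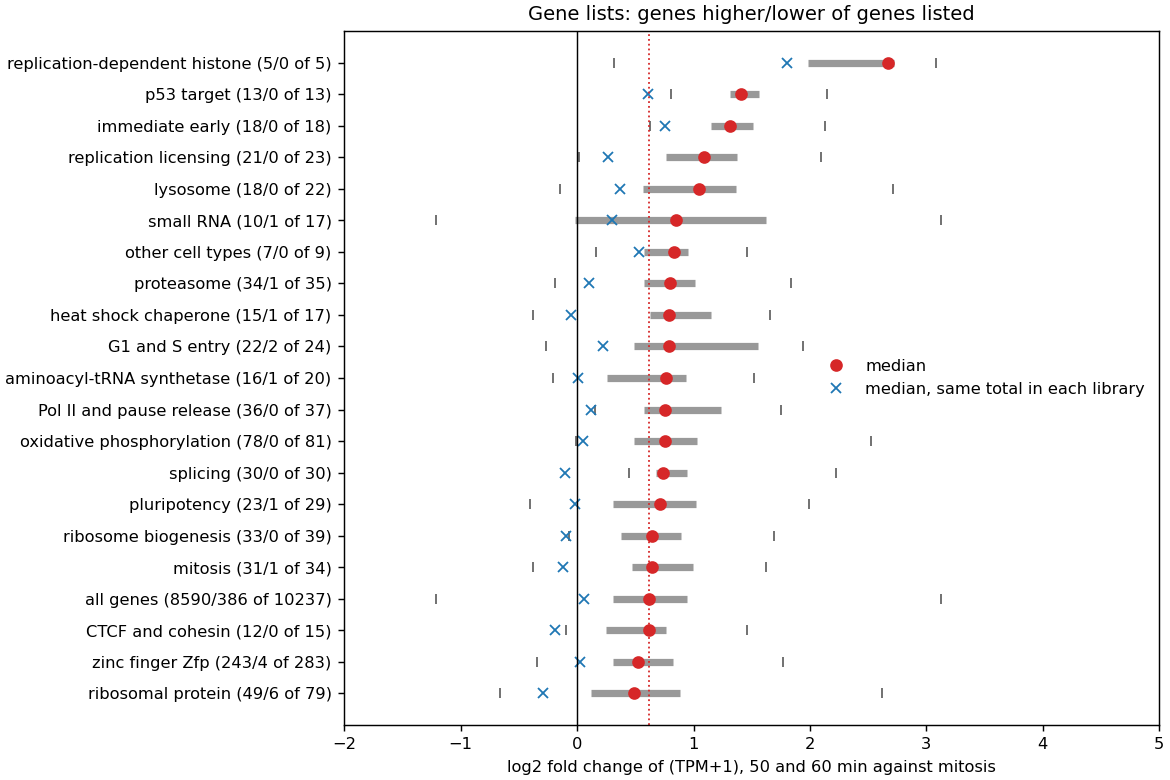
Log2 fold change of (TPM + 1) between the burst libraries and mitosis for the 20 gene lists and all genes. Red points are medians, grey bars quartiles, ticks the lowest and highest member, blue crosses the medians with the same total in each library, and the dotted line is the median of all genes (0.62). Numbers beside each name give genes higher and lower of the genes listed. The medians of 18 of the 20 lists lie between 0.61 and 2.67, and those of the zinc finger and ribosomal protein lists lie below.

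Of the pluripotency genes, the transcription factors and markers that define ES cells, 29 of 30 were listed, which fits the labelled cell type, and Sox2 was not analysed here. 23 were higher (79.3%, beside 83.9% of all genes) and 1 lower, with a median of 0.71. Under the same total 11 were higher and 13 lower, with a median of -0.02. Their summed pre-mRNA was 99.2 to 161 TPM in the mitotic and 219 to 252 TPM in the burst libraries. Pou5f1, the gene of the central factor OCT4, had 11.7, 7.20 and 11.6 TPM in mitosis, 15.3 and 17.3 TPM at 50 min and 13.9 and 14.3 TPM at 60 min. The groups did not overlap and the difference was 0.55 ± 0.15 (adjusted p = 0.00325, limma), close to the median of all genes, and it turned to -0.33 under the same total.

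Other pluripotency factors moved further. Klf4, a zinc finger factor, had 1.67, 1.07 and 1.79 TPM in mitosis and 6.04, 8.22, 4.45 and 6.26 TPM in the burst libraries (1.56 ± 0.16, adjusted p = 3.62e-07, limma). Myc, which codes for a growth-promoting factor and led the list, had 0.78, 0.37 and 0.44 TPM in mitosis against 5.03 and 6.03 TPM at 50 min and 4.34 and 5.06 TPM at 60 min (1.99 ± 0.14, adjusted p = 1.21e-08, limma). Esrrb, an orphan nuclear receptor on a gene of 161 kb, had 2.26, 1.64 and 2.56 TPM in mitosis and 3.68 to 4.70 TPM in the burst libraries (0.71 ± 0.12). Under the same total Klf4 and Myc remained higher, whereas the change of Esrrb was 0.00 (adjusted p = 0.983, limma). Tet1, an enzyme that oxidises methylated cytosine on a gene of 104 kb, was the 1 member that was lower, with 8.66, 5.15 and 11.0 TPM in mitosis and 4.58 to 6.66 TPM in the burst libraries. These groups overlapped (-0.41 ± 0.14, adjusted p = 0.0131, limma), and the call was lost without the replicate block (adjusted p = 0.242) and without any of replicate 3 (0.0632), mitotic replicate 1 (0.0606), 60 min replicate 1 (0.0501) or 50 min replicate 3 (0.0967).

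Markers of other cell types (endoderm, trophoblast, mesoderm, neural, fibroblast and blood) were mostly absent from the table: 9 of 26 were listed. Their summed level was 2.48 to 4.42 TPM in mitosis and 8.95 to 25.0 TPM in the burst libraries. 7 of the 9 were higher, but of the 5 with an asynchronous mean over 0.5 TPM 3 were, and the other 4 lay at or under that level there. Nes, the intermediate filament nestin, led with 1.00, 1.76 and 1.32 TPM in mitosis and 3.90 to 8.77 TPM in the burst libraries (1.46 ± 0.16), and Krt8, a keratin, was not called (0.16 ± 0.18, adjusted p = 0.411, limma) and was at -0.16 under the same total. The part of such cells in the results was not tested.

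Of 30 immediate early genes, which respond to growth factors and stress without new protein synthesis, 18 were listed. All 18 were higher, beside 83.9% of all genes. Members can be listed through their level after release, and this list was not split by asynchronous level. In 17 of the 18 every burst library lay above every mitotic one, beside 75.6% of all genes. Gadd45b, a stress sensor, led with 0.46, 1.03 and 0.85 TPM in mitosis, 4.63 and 9.07 TPM at 50 min and 3.67 and 9.06 TPM at 60 min (2.13 ± 0.16, adjusted p = 2.95e-08, limma). The 2 libraries of replicate 1 were the lower ones. Egr1, a zinc finger factor, was the exception to the separation, with 1.78, 1.32 and 2.07 TPM in mitosis and 3.00, 3.56, 1.30 and 4.97 TPM in the burst libraries. It was called (0.63 ± 0.22, adjusted p = 0.014, limma), but not without replicate 2 (0.17, adjusted p = 0.226), without mitotic replicate 2 (0.36, adjusted p = 0.134), without 60 min replicate 2 (0.35, adjusted p = 0.106), without 50 min replicate 1 (adjusted p = 0.0503) or without the block (0.56, adjusted p = 0.075). The library of 60 min replicate 2 was its highest, and asynchronous cells were at 10.8 TPM. Its change under the same total was -0.02. The median of the list was 1.46 at 50 min and 1.20 at 60 min.

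Of 17 targets of p53, the factor that responds to DNA damage and long mitosis, 13 were listed. All 13 were higher, beside 83.9% of all genes. In all 13 every burst library lay above every mitotic one, beside 75.6% of all genes. This list was not split by asynchronous level either. Bbc3, which codes for the cell death protein PUMA, had 1.24, 0.71 and 0.91 TPM in mitosis against 8.37 and 8.81 TPM at 50 min and 5.76 and 7.94 TPM at 60 min (2.15 ± 0.18, adjusted p = 4.55e-08, limma). The smallest change was that of Sesn1, a stress-induced regulator of growth signalling, from 0.35, 0.32 and 0.78 TPM to 1.27 to 1.85 TPM (0.81 ± 0.07). The list's median was 0.60 under the same total, beside 0.06 for all genes, and its median difference from asynchronous cells was 1.52, beside 0.51 for all genes. Cells without this drug treatment before release were not sampled, so the treatment and the passage through mitosis cannot be told apart.

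Among the genes of G1 and S phase entry, 22 of 24 were higher and 2 lower (median 0.79), against 14 and 6 under the same total. Ccne2, cyclin E2, which drives entry into S phase, led with 1.41, 0.85 and 1.04 TPM in mitosis and 5.53 to 8.37 TPM in the burst libraries (1.94 ± 0.14). Its partner kinase gene Cdk2 had 1.61, 0.88 and 1.60 TPM against 6.11, 8.50, 6.57 and 6.26 TPM (1.75 ± 0.11, adjusted p = 6.04e-09, limma). E2f1, a factor that turns on S phase genes, had 3.70, 3.47 and 4.14 TPM against 6.09 to 8.68 TPM (0.78 ± 0.09), a change of -0.02 under the same total. The retinoblastoma gene Rb1, which restrains E2F factors, spans 142 kb and went from 0.46, 0.54 and 0.67 TPM to 1.34 to 1.64 TPM (0.72 ± 0.07). Its relative Rbl1 fell, from 0.78, 0.85 and 0.96 TPM to 0.49 to 0.57 TPM (-0.27 ± 0.05, adjusted p = 9.95e-05, limma), with no overlap.

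Of the 23 genes that license and start DNA replication, 21 were higher and none lower, against 15 higher and 6 lower under the same total. Gins2, a subunit of the replicative helicase, had 1.39, 0.81 and 1.14 TPM in mitosis and 6.65 to 9.88 TPM in the burst libraries (2.09 ± 0.13, adjusted p = 7.4e-09, limma). Orc5, a subunit of the origin recognition complex on a gene of 63.9 kb, was not called, with 4.10 to 5.69 TPM in mitosis and 4.04 to 6.50 TPM in the burst libraries (0.02 ± 0.08, adjusted p = 0.822, limma). Under the same total it was lower (-0.78, adjusted p = 4.34e-07, limma).

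Of 34 genes used in mitosis itself 31 were higher and 1 lower, with a median of 0.64, near that of all genes. Under the same total 11 were higher and 16 lower, with a median of -0.12. Birc5, survivin of the chromosomal passenger complex, went from 2.81, 1.56 and 2.64 TPM to 6.60 to 12.5 TPM (1.62 ± 0.11). Cenpa, the histone variant that marks centromeres, fell from 6.87, 5.86 and 7.56 TPM to 4.80, 4.89, 5.33 and 4.82 TPM (-0.38 ± 0.08, adjusted p = 0.00057, limma), and its groups did not overlap.

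Among CTCF and the cohesin genes, which shape chromosome loops, 12 of 15 were higher (80.0%, beside 83.9% of all genes) and none lower (median 0.61). Under the same total 4 were higher and 9 lower. Ctcf, the gene that carries the degron, had 5.74, 6.15 and 6.78 TPM in mitosis, 9.41 and 10.1 TPM at 50 min and 9.69 and 10.1 TPM at 60 min (0.61 ± 0.10, adjusted p = 2.49e-05, limma). All burst libraries were above all mitotic ones, and the change was -0.23 under the same total. Esco2, an acetyltransferase that acts on cohesin in S phase, rose by 1.45 ± 0.11, while Hdac8, the enzyme that removes that acetyl group, on a gene of 221 kb, was at 0.35 to 0.59 TPM in mitosis and 0.31 to 0.46 TPM in the burst libraries (-0.09 ± 0.05, adjusted p = 0.086, limma). Hdac8 was called lower without 50 min replicate 1 (-0.12, adjusted p = 0.0479, limma) and under the same total (-0.39, adjusted p = 2.45e-05, limma).

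The lists of the machinery of gene expression are read beside the 83.9% of all genes that were higher. Of the genes for RNA polymerase II and its release from pausing, 36 of 37 were higher (median 0.75), and 16 were higher and 12 lower under the same total. They ran from Polr2i, a small polymerase subunit (1.75 ± 0.14), to Aff4, a scaffold of the super elongation complex on a gene of 71.0 kb (0.15 ± 0.09, adjusted p = 0.114, limma). Aff4 was called higher without 50 min replicate 3 (0.25, adjusted p = 0.0126, limma) and lower under the same total (-0.69, adjusted p = 9.16e-07, limma). All 30 listed splicing genes were higher (median 0.74), whereas 6 were higher and 11 lower under the same total (median -0.10). Srsf2, a serine and arginine rich splicing factor, led with 14.4, 9.69 and 6.73 TPM in mitosis and 49.5 to 58.4 TPM in the burst libraries (2.22 ± 0.18), and Srsf10 moved least (0.45 ± 0.09), a change that was -0.45 under the same total. Of 39 genes of ribosome biogenesis 33 were higher (84.6%, near the share of all genes, median 0.64), and under the same total 10 were higher and 17 lower. The list ran from Gnl3, nucleostemin (1.69 ± 0.15), to Polr1b, a subunit of RNA polymerase I (-0.07 ± 0.08, adjusted p = 0.432, limma), which was lower under the same total (-0.82, adjusted p = 2.64e-07, limma). Of 20 aminoacyl-tRNA synthetases 16 were higher (80.0%) and 1 lower (median 0.77), and 7 and 8 under the same total. They ran from Qars, the glutamine enzyme (1.52 ± 0.12), to Eprs, the enzyme for glutamate and proline (-0.20 ± 0.08, adjusted p = 0.0253, limma). The call of Eprs was lost in 8 of 17 alternative fits. Among these were the fits without any one of the 3 replicates (adjusted p of 0.0897 to 0.113, limma) and without the block (0.207).

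Of 79 ribosomal protein genes 49 were higher (62.0%, beside 83.9% of all genes), 6 lower and 24 neither, and the quartiles of their log2 fold changes were 0.12 and 0.88. Rps12, described above, was the highest. Rpl24, a protein of the large subunit, fell from 6.26, 5.47 and 6.68 TPM to 3.85, 4.03, 3.42 and 2.70 TPM (-0.66 ± 0.08, adjusted p = 2.07e-06, limma), with no overlap. Most of these genes have many processed copies elsewhere in the genome, and how reads were shared with them is not known here. With the same total 16 were higher and 47 lower, with a median of -0.29.

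Among housekeeping complexes, 34 of 35 proteasome genes were higher and 1 lower (median 0.80), and 78 of 81 oxidative phosphorylation genes were higher and none lower (median 0.75). With the same total 15 proteasome genes were higher and 11 lower, and 34 oxidative phosphorylation genes were higher and 25 lower. Psmb6, a catalytic proteasome subunit, rose from 1.83, 1.49 and 1.81 TPM to 7.87 to 9.98 TPM (1.84 ± 0.09), whereas Psma8, a testis form, fell by 0.19 (adjusted p = 0.0386, limma) with overlapping groups, a call lost without replicate 1 (0.113), without replicate 3 (0.0953), without most single libraries and without the block (0.463). Ndufc2 of respiratory complex I was not called (-0.01 ± 0.07, adjusted p = 0.854, limma), but was lower under the same total (-0.43, adjusted p = 0.000131, limma). Of 22 lysosome genes 18 were higher (15 higher and 5 lower under the same total), from Cd68 down to Glb1, a beta-galactosidase (-0.15 ± 0.08, adjusted p = 0.0975, limma). Glb1 was called lower without 50 min replicate 1 (-0.19, adjusted p = 0.0455, limma) and under the same total (-0.91, adjusted p = 2.11e-07, limma).

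Of 17 heat shock and chaperone genes 15 were higher and 1 lower (median 0.79), against 7 and 7 under the same total (median -0.06). Dnajb1, a heat-inducible co-chaperone, rose from 1.83, 1.83 and 1.68 TPM to 6.63 to 9.98 TPM (1.66 ± 0.11). Hspd1, the mitochondrial chaperonin, fell from 31.8, 29.1 and 31.7 TPM to 24.4 and 25.3 TPM at 50 min and 22.4 and 21.7 TPM at 60 min (-0.38 ± 0.08, adjusted p = 0.000626, limma), with no overlap, though not called without replicate 1 (-0.36, adjusted p = 0.116). The Zfp zinc finger genes, mostly repressors of transcription, numbered 283, of which 243 were higher and 4 lower (98 and 88 under the same total), from Zfp750 (1.77 ± 0.14) to Zfp532 on a gene of 110 kb (-0.34 ± 0.12, adjusted p = 0.0162, limma). Zfp532 was not called in 6 of 17 alternative fits. Among these were the fits without any one of the 3 replicates (adjusted p of 0.054 to 0.0661, limma) and without the block (0.214). The 5 histone genes ran from Hist1h2bc to Hist1h2be (0.31 ± 0.10, adjusted p = 0.00885, limma), whose change was -0.25 under the same total and was not called without replicate 1 (adjusted p = 0.136). Of the 17 small RNA genes 10 were higher and 1 lower, against 9 and 6 under the same total, and the ends of the list were Mir20a and Mir496a.

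The change was smaller in longer genes. 10209 of the 10237 genes were matched to 1 annotated gene, and across them the log2 fold change and gene length had a Spearman rho of -0.45, given as a description since genes are not independent and share all 7 libraries. In the single pairs rho ran from -0.28 (60 min replicate 1) to -0.53 (50 min replicate 3). Genes under 5 kb had a median of 0.90 (1107 genes, 92.2% higher and 1.54% lower). The median was 0.83 for 5 to 10 kb, 0.72 for 10 to 20 kb, 0.59 for 20 to 50 kb, 0.43 for 50 to 100 kb and 0.20 for 100 to 200 kb. Genes over 200 kb had a median of -0.02 (294 genes, 25.5% higher and 27.2% lower).

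The order held in each pair of libraries, though its steepness differed. Between genes under 5 kb and over 200 kb the medians were 0.87 and 0.08 in 50 min replicate 1, 1.03 and -0.15 in 50 min replicate 3, 0.76 and 0.13 in 60 min replicate 1, and 0.94 and -0.06 in 60 min replicate 2. The order also held with a pseudocount of 0.1 (1.66 and -0.02) and under the same total (0.43 and -0.45). With genes split into 3 equal groups by mean level, the medians of these classes were 0.69 and 0.00 in the low group and 1.10 and -0.06 in the middle one. In the high group they were 1.23 and 0.01, the latter over 24 genes.

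The 386 genes that were lower had a median length of 89.1 kb, and 171 of them (44.3%) exceeded 100 kb, beside 22.5 kb and 10.3% for all genes. The 2221 genes higher by more than 1 on the log2 scale had a median length of 11.9 kb, and 15 of the 2215 with a length (0.677%) exceeded 100 kb. The median TPM of the 386 was 1.56 in mitosis and 1.03 in the burst libraries, the values that chose them. Between these it was 1.41 (20 min) and 1.07 (40 min), after them it was 1.28 (90 min), and asynchronous cells were at 1.75.

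**Figure D4:**
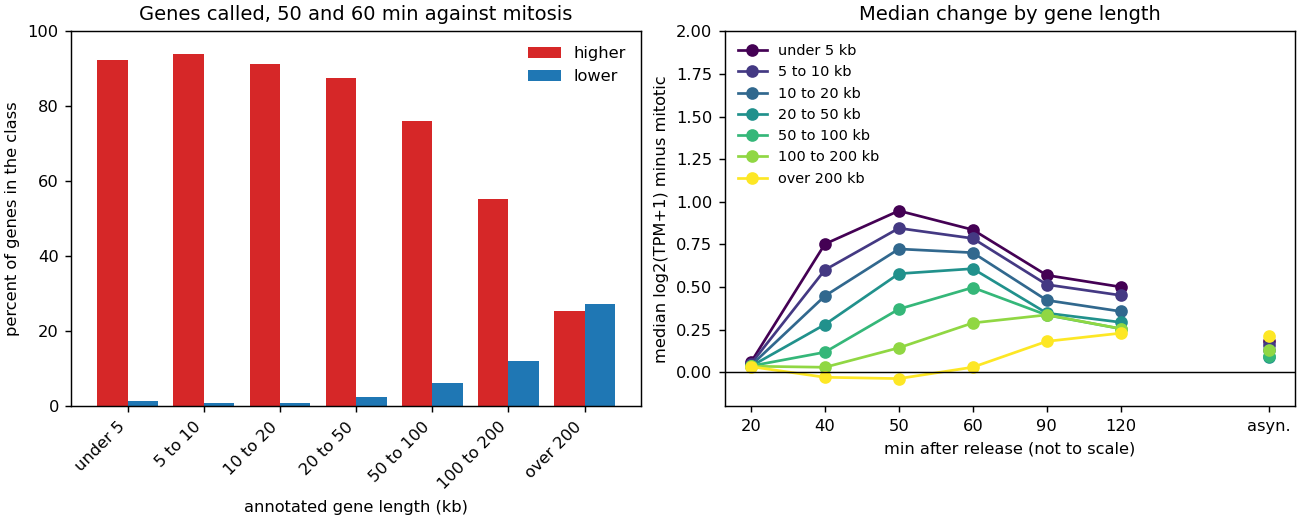
Left, percent of genes called higher and lower in the burst libraries against mitosis by annotated gene length. Right, median difference in log2(TPM + 1) from the mitotic library of the same replicate by stage, in min after release, for the same 7 length classes, with asynchronous cells apart. Genes under 5 kb peaked at 50 min (0.95), genes of 50 to 100 kb at 60 min (0.50) and genes of 100 to 200 kb at 90 min (0.34). The median of genes over 200 kb was 0.03 in the 60 min libraries and 0.23 in those of 120 min.

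Over the time course the medians of longer classes peaked at the same time as those of shorter ones or later, the 3 classes under 20 kb at 50 min. At 20 min all 7 classes had medians between 0.03 and 0.06. At 40 min genes under 5 kb were already at 0.75, while genes over 200 kb were at -0.03. For genes under 5 kb the median was then 0.95 (50 min) and 0.84 (60 min), and for genes of 20 to 50 kb 0.58 and 0.61. For genes of 100 to 200 kb it was 0.14 (50 min), 0.29 (60 min) and 0.34 (90 min). In asynchronous cells the 7 medians lay between 0.09 and 0.21 with no such order. Each stage mean rests on 2 or 3 libraries, and these stage medians were not tested.

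Promoter letters went with smaller differences. Of 6534 genes with a single promoter of 300 bases, from 250 before to 50 after the start, 11.4% held the E-box CACGTG, beside 7.15% of all 32851 promoters in the table. Genes with it had a median log2 fold change of 0.75 and genes without it 0.62. For the cAMP response element TGACGTCA, in 3.73% of these genes and 1.79% of all promoters, the medians were 0.74 and 0.63. For CCAAT they were 0.68 and 0.60 (40.7% and 37.4%), for the GC box GGGCGG 0.67 and 0.55 (69.3% and 35.7%), and for the ETS letters CCGGAAG 0.70 and 0.62 (21.0% and 8.86%). The difference for the ETS letters was gone under the same total, with medians of 0.066 and 0.074. For TATAAA they were 0.63 and 0.64 (6.21% and 13.6%), and 0.096 and 0.071 under the same total. All of these lie well within the quartiles of all genes.

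The 2 times were also taken apart. The comparison of 50 min with mitosis gave 7995 genes higher (78.1%) and 435 lower (4.25%). That of 60 min gave 8623 higher (84.2%) and 242 lower (2.36%). With the same total these counts were 4008 and 3288 at 50 min and 3879 and 3017 at 60 min, and without the replicate block 171 genes were lower at 50 min and 152 at 60 min. Each rests on 2 libraries, and both use the same mitotic ones. Where 1 of the 2 is left out, as below, the other stages give the spread. The genes lower at 50 min were 166 without replicate 3 and 185 without its 50 min library, and those lower at 60 min were 129 without replicate 1, 134 without replicate 2 and 148 without the 60 min library of replicate 2. In the direct comparison of 60 with 50 min limma called no gene at an adjusted p of 0.05, and 1749 of 10237 genes had an unadjusted p under 0.05. Its median difference was 0.06, and it turned to -0.07 without the replicate block. Without replicate 2 only 1 library of 60 min is left, and without replicate 1 only 1 of each time. The median difference was then 0.04 without replicate 2 and 0.10 without replicate 1.

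Against 40 min, 5056 genes (49.4%) were higher in the burst libraries and 133 (1.3%) lower, with a median of 0.23. This count rests on 2 libraries of 40 min (replicates 1 and 2). Without replicate 1 or 2 only 1 library of 40 min is left, and the other stages then give the spread. The median was 0.27 without replicate 1 and 0.19 without replicate 2, and the count moved widely, as given in the last section. Without the replicate block the count was 2932 higher and 28 lower, and under the same total 1197 higher and 577 lower, with a median of 0.03. Gins2 was at a mean of 4.50 TPM at 40 min and at 6.65 to 9.88 TPM in the burst libraries (0.60 ± 0.15, adjusted p = 0.00618, limma). Ccne2 was at a mean of 6.26 TPM at 40 min and at 5.53 to 8.37 TPM in the burst libraries, and was not called (0.11 ± 0.17, adjusted p = 0.585, limma).

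Against asynchronous cells, which carry all phases of the cycle, 7642 genes (74.7%) were higher in the burst libraries and 903 (8.82%) lower, with a median of 0.51. The summed TPM was 20361 to 28455 in the 3 asynchronous libraries. Under the same total the counts were 4052 higher and 3581 lower. The deposited values of a library are multiples of a library factor, which was 1.86 to 2.17 in the asynchronous and 2.25 to 2.60 in the burst libraries. After division by it 6198 genes were higher and 1626 lower, with a median of 0.32. On the deposited scale the median difference was highest for p53 targets (1.52), replication licensing (1.16), immediate early genes (1.03) and lysosome (1.02), and lowest for ribosomal proteins (0.07).

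The same release with CTCF degraded gave a closely similar profile. In the arm with IAA the median genes of the 4 pairs rose by 0.62, 0.61, 0.56 and 0.67, and the summed TPM of its burst libraries was 37872 to 43058. Across genes the mean changes of the 2 arms had a Spearman rho of 0.97 (a description over 10237 genes). The change from mitosis differed between the arms in 38 genes (limma, adjusted p of 0.1 and a log2 difference over 0.2), of which 8 (0.0781%) changed more upward with IAA and 30 (0.293%) more downward, and 296 genes had an unadjusted p under 0.05. These counts fell to 1 and 2 without the replicate block, to 0 and 0 without replicate 1, to 4 and 16 without replicate 2 and to 4 and 7 without replicate 3. Leaving out a single library of the IAA arm (mitotic replicate 1, 60 min replicate 1 or 50 min replicate 3) gave 19 genes more downward each time.

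**Figure D5:**
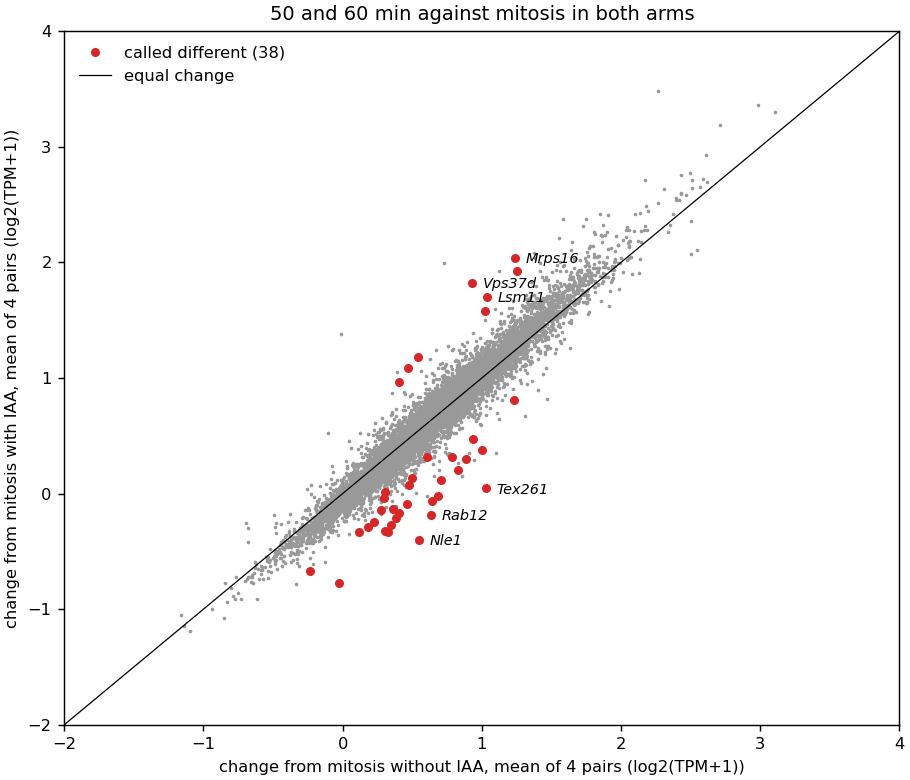
Change in log2(TPM + 1) from mitosis to 50 and 60 min in CTCF-AID cells without IAA (x axis) and with IAA (y axis), each the mean of 4 pairs, for 10237 genes. The line marks equal change and red points are the 38 genes called different, of which 30 lie below the line.

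Without IAA, Tex261 rose from 1.78, 1.12 and 1.66 TPM in mitosis to 3.41 to 5.40 TPM in the burst libraries (1.02 ± 0.07). With IAA it stayed at 1.17 to 1.54 TPM, against 1.03 to 1.37 TPM in mitosis. Nle1, a factor of ribosome assembly, rose without IAA from 3.71 to 4.89 TPM in mitosis to 6.60 to 8.03 TPM (0.57 ± 0.10), a change of -0.24 under the same total, and with IAA was at 2.52 to 3.01 TPM, below its mitotic 3.41 to 4.28 TPM. Rab12, a small GTPase of membrane traffic, rose without IAA from 1.76, 1.76 and 2.43 TPM to 3.27 to 3.80 TPM (0.63 ± 0.07), a change of -0.06 under the same total, and was at 1.35 to 1.57 TPM with IAA. In these 3 genes the burst libraries of the 2 arms did not overlap, which their choice by the difference between the arms favours.

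The opposite held for Vps37d, a subunit of the ESCRT-I sorting complex, which reached 0.97 to 1.61 TPM in the burst libraries without IAA and 3.14 to 3.72 TPM with it. Mrps16, a mitochondrial ribosomal protein, rose from 0.56 to 0.78 TPM in mitosis to 2.34 to 3.26 TPM without IAA (1.24 ± 0.08) and reached 5.32 to 6.61 TPM with it. Lsm11, a part of the U7 particle that trims histone mRNA, reached 2.46 to 3.39 TPM without IAA and 5.22 to 7.08 TPM with it. Again the burst libraries of the arms did not overlap, which the choice of these genes favours. Without the block Tex261 (adjusted p = 0.156), Rab12 (0.135), Mrps16 (0.20) and Lsm11 (0.156) were not called, whereas Nle1 and Vps37d were, and without replicate 1 none of the 6 was called (0.172 to 0.695). Mrps16 was not called without replicate 2 either (0.11), nor Lsm11 without replicate 3 (0.684) or with a pseudocount of 0.1 (0.138).

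In CCNA-GFP cells, an ES line with a cyclin A reporter and without the degron, 3 burst libraries were made with the same release. Their median genes rose by 0.56 (50 min, replicate 3), 0.92 (60 min, replicate 1) and 0.64 (60 min, replicate 2), over the genes of a separately processed table. Genes under 5 kb had a median of 1.02 there and genes over 200 kb 0.07, beside 0.88 and 0.00 in the CTCF-AID cells without IAA taken over the same kind of pairs. Of the 16 genes named above that were called lower, 15 are in that table, and the mean of these 3 pairs was below 0 in 11 of them, from -0.68 (Mir496a) and -0.62 (Mirg) to -0.04 (Rpl24) and -0.0042 (Tet1). It was above 0 in 4, with 0.33 for Hspd1, 0.18 for Eprs, 0.08 for Cenpa and 0.05 for Zfp532. The peak of the library median differed between replicates of CCNA-GFP. In replicate 1 it was 2.82 TPM at 60 min and 2.27 TPM at 90 min. Replicate 3 had 2.27 TPM at 50 min and 2.79 TPM at 90 min. Replicate 2 had 2.05 TPM at 60 min and 2.10 TPM at 120 min. The tables were normalized separately, and the lines were not tested against each other.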

How the data were processed

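Ribosomal-depleted, stranded, paired-end RNA-seq was aligned by the authors with STAR to mm10 and quantified with RSEM on a Gencode annotation to which a pre-mRNA isoform was added for each gene. The deposited values are pre-mRNA TPM of genes that passed the authors' filter, a mean that passes 0.5 TPM either in the asynchronous culture or in 2 or more samples after mitosis. No sample column was left unused (0 columns without a sample). Each library's values are whole multiples (within 2% of a step) of 0.01 TPM times a library factor, 2.17 to 2.59 in the mitotic and 2.25 to 2.60 in the burst libraries. The sources used here do not name that factor. Depth is not known, so no interval for counting error can be given.

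From these values log2(TPM + 1) was computed and limma 3.58.1 (R 4.3.3) was fitted to all 18 CTCF-AID libraries without IAA, with stage and replicate as terms, a mean trend and Benjamini-Hochberg adjustment over 10237 genes. The IAA difference was an interaction term over both arms. The replicate block follows the study, which set each library against the mitotic one of its own experiment. Deviations of same-numbered libraries correlated over 0.1 in 45 of 49 pairs (median 0.48), and in 5 of 5 pairs among mitotic, 50 and 60 min libraries. Where both stages hold only 2 libraries of the same replicates, both replicates give the same value, so the 49 are not all distinct. Replicates are separate release experiments of 1 clone. The fit was tested on simulated data in which 200 of 10237 genes changed. For the burst comparison 98% of simulated log2 changes of 1 were recovered and 44% of those of 0.3, and 99% and 27% for the IAA difference. False calls made up 2.07% and 8.7% of the calls. Far more genes were called in the real burst comparison, so the recovered shares need not hold for it. Library sums and medians were compared by exact permutation (Python 3.11, scipy).

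Genes were named by rule: the 12 largest rises (small RNA genes apart) and 8 largest falls with no overlap between groups, both ends of each list, 8 genes of pluripotency, cell cycle and CTCF, the small RNA gene with the largest rise, and up to 3 genes in each direction of the IAA difference. Members and lists were chosen with earlier results of these data known. Gene coordinates are from Gencode vM21 (GRCm38), matched by symbol for 10209 genes, 12 having no match and 16 more than 1. Promoters and miRNAs are from RefSeq (GRCm38.p6), where 8199 genes had a promoter. Alternatives were the fit without the block, another pseudocount (0.1), genes of at least 1 TPM, the same summed TPM in each library, values divided by the factor, no trend, fewer stages, and leaving out each replicate and each library.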

Additional observations from a re-analysis of the deposited data

Results flagged for a closer look

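6 genes named above were singled out because their change from mitosis to 50 and 60 min differed between the arms in the interaction term (limma, adjusted p of 0.1). The difference, with IAA minus without, was -1.0 ± 0.12 (SE) for Tex261, -0.97 ± 0.14 for Nle1 and -0.78 ± 0.10 for Rab12, and 0.93 ± 0.09 for Vps37d, 0.79 ± 0.11 for Mrps16 and 0.67 ± 0.13 for Lsm11. Over the alternatives and the libraries left out each kept its sign, but each lost its call in at least 1 of them, Lsm11 in 4, Mrps16 in 3, Tex261 and Rab12 in 2, and Nle1 and Vps37d in 1.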

How the results depend on the processing

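The median log2 fold change of the burst against mitosis was 0.99 with a pseudocount of 0.1, 0.72 over genes of at least 1 TPM, 0.59 after division by the library factor, 0.63 over genes with an asynchronous mean over 0.5 TPM (chosen after seeing the data), and 0.59 to 0.64 with a replicate or library left out. Scaling to one total per library removes the overall shift by construction, so its median of 0.060 says nothing of the direction, and the split of the calls changed with it. With the same total, 4305 genes were higher and 3399 lower in the burst libraries, 4008 and 3288 at 50 min, 3879 and 3017 at 60 min, 1197 and 577 against 40 min, and 4052 and 3581 against asynchronous cells, and 54 genes changed more downward with IAA. Without the replicate block, 211 genes were lower in the burst libraries, 171 at 50 min, 152 at 60 min and 573 against asynchronous cells. Against 40 min that fit gave 2932 higher and 28 lower, and 1 and 2 for the IAA difference. Among the 68 single-gene results, 9 were no longer called without the block. Over genes of at least 1 TPM, where fewer genes were tested, 254 were lower in the burst libraries, 143 at 60 min, 79 against 40 min and 527 against asynchronous cells, and 2 were higher at 60 than at 50 min. Division by the factor gave 1626 genes lower than in asynchronous cells, and a pseudocount of 0.1 gave 5 genes more upward with IAA.

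With a replicate or library left out, the genes lower numbered 247 to 473 in the burst libraries, 166 to 565 at 50 min and 129 to 249 at 60 min. Between 60 and 50 min they were 0 to 10 higher and 0 to 33 lower, and against 40 min 47 to 5086 higher and 17 to 172 lower. The IAA difference gave 0 to 10 upward and 0 to 33 downward. Where such a fit left a single library at 40, 50 or 60 min, the other stages gave the spread. The difference of library medians was 0.65 to 0.74 and that of summed TPM 18155 to 20503, where the exact test cannot pass 0.05 with 6 libraries. With labels placed within replicates, a replicate block chosen after seeing the data, these differences were 0.69 and 19451 with an exact p of 0.0833, the smallest that 12 placements can give. Between 60 and 50 min the median difference turned from 0.06 to -0.07 without the replicate block.

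With the same total, Pou5f1 (-0.33), Ctcf (-0.23), Srsf10 (-0.45), Hist1h2be (-0.25), E2f1 (-0.017), Egr1 (-0.024), Nle1 (-0.24) and Rab12 (-0.063) turned negative, and so did 4 genes not called on the deposited scale: Meg3 (-0.80), Orc5 (-0.78), Aff4 (-0.69) and Krt8 (-0.16). Orc5 was also -0.0039 after division by the factor. Left-out libraries moved Orc5 from -0.085 to 0.085, Krt8 from -0.10 to 0.34, Ndufc2 from -0.066 to 0.055 and Polr1b from -0.11 to 0.0035. The cause of these changes was not tested, apart from the scaling itself. Of the 68 single-gene results, 43 kept both their sign and their call throughout. Depth in reads is unknown and limits what can be said of genes listed near 0.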
